A study of Mus musculus with 11 samples.

Results

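Krt7, Krt8, Krt18 and Krt19, the keratins of simple epithelia, were described here with the epithelial adhesion molecule Epcam and the mesenchymal intermediate filament protein vimentin (Vim) in mouse induced pluripotent stem cells (iPSC) and their feeder cells. The members are the 6 genes of this set, found by their annotated symbols among 17711 genes with a symbol of their own on an Illumina BeadChip, and 8 probes carried these symbols. RNA was measured on 8 arrays, all from cells of strain C57BL/6. The feeder cells (2 arrays) are labelled as LIF-expressing embryonic fibroblasts under the name MSTO. The feeder-free iPSC (3 arrays) grew without feeders in medium with 1000 units/ml of added leukemia inhibitory factor (LIF) and 15% fetal bovine serum. The iPSC on feeder (3 arrays) grew on feeder cells, from which they were lifted mechanically. The growth protocol names these as mitomycin C-treated SNL76/7 cells, and how MSTO relates to SNL76/7 is not stated. The authors also computed 3 in silico mixtures, each 92% of a feeder-free signal plus 8% of the feeder signal. The labels do not say whether replicates are separate cultures or how many iPSC lines were used, so p-values measure only the spread between these samples.

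Keratins form filaments only as pairs of a type I and a type II protein. Krt8 (type II) with Krt18 (type I) is the first keratin pair made in the mouse embryo and the basic pair of simple epithelia, while Krt7 (type II) and Krt19 (type I) are added in many ducts, in trophoblast and in other single-layered epithelia. Epcam is a membrane glycoprotein of epithelial cells that mouse pluripotent cells are also known to carry. Vimentin is a type III protein that forms filaments by itself, is abundant in fibroblasts, and is widely used with the keratins to place cells between an epithelial and a mesenchymal state.

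The arrays and the labels were checked first. A feeder array detected 13581 to 14574 probes, a feeder-free array 17307 to 18759 and an on-feeder array 17630 to 19043. On each array the median of detected probes was 2.56 to 3.20 times the median of the rest. Of 8 pluripotency markers, 7 had a probe and were detected on every iPSC array, with a summed normalized signal of 15910 to 16900 in feeder-free iPSC, 13560 to 15420 on feeder and 72.1 to 201.4 in feeder cells. Of 10 fibroblast markers 9 had a probe and 5 were detected on both feeder arrays, 4 on every feeder-free array and 4 on every on-feeder array. The 9 summed to 10130 to 12150 in feeder cells, 608.9 to 642.6 in feeder-free iPSC and 2447 to 2518 in iPSC on feeder. Thy1 and Col1a1 were bright in the feeder cells, while the probes for Col1a2, Col3a1, Lum and Postn were not detected on any array of any group. All 8 primitive endoderm markers with a probe were detected in both iPSC groups, and 3 were detected on both feeder arrays. Their sums were 938.3 to 1006 in feeder cells, 4579 to 4912 in feeder-free iPSC and 3460 to 4304 on feeder. Among 9 trophoblast markers, a list that includes Krt7 itself, 5 were detected on every feeder-free array (Tfap2c, Krt7, Ascl2, Hand1 and Cdx2) and 4 on every on-feeder array, while Elf5 and Tpbpa were detected on none. Their sums were 359.3 to 375.1 in feeder cells, 1472 to 1676 in feeder-free iPSC and 1485 to 1867 on feeder. Of 7 keratinocyte markers, Krt14, Krt10, Dsg3 and Col17a1 were detected on every iPSC array, and Krt5, Trp63 and Krt1 were detected on no array of any group. The keratinocyte sums were 372.9 to 383.6 in feeder cells, 249 to 264 in feeder-free iPSC and 228.9 to 255.9 on feeder. These are bulk samples, in which more cells of a type and more RNA per cell cannot be told apart, and the part of any such cells in the keratin and vimentin levels was not tested.

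In the feeder-free iPSC, Krt8, Krt18 and Krt19 were detected on every array and in no feeder culture, Krt7 was 2.24-fold higher than in feeder cells, and vimentin stood at 22.8% of its feeder level. All 5 members that could be tested passed the threshold against feeder cells, 4 higher and 1 lower, with no overlap between arrays. Krt8, Krt18 and Krt19 were kept only through the iPSC arrays and could hardly come out lower, so their calls do not test their direction. The same test called 81.9% of all 10058 genes (40.8% higher and 41.1% lower), and 87.9% of genes did not overlap, so the count of calls says nothing particular of these genes. Against the same feeder cells, iPSC on feeder gave the same count, 4 higher and 1 lower with no overlap, where 80.8% of all genes were called (39.1% higher and 41.7% lower) and 86.9% did not overlap. Levels are log2 of the background-corrected, quantile-normalized signal of the gene's probe, and compare groups for a probe, never 1 probe with another. Tests are limma's moderated test, adjusted after Benjamini and Hochberg over all genes in the fit, at a threshold of 0.05.

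**Figure D1:**
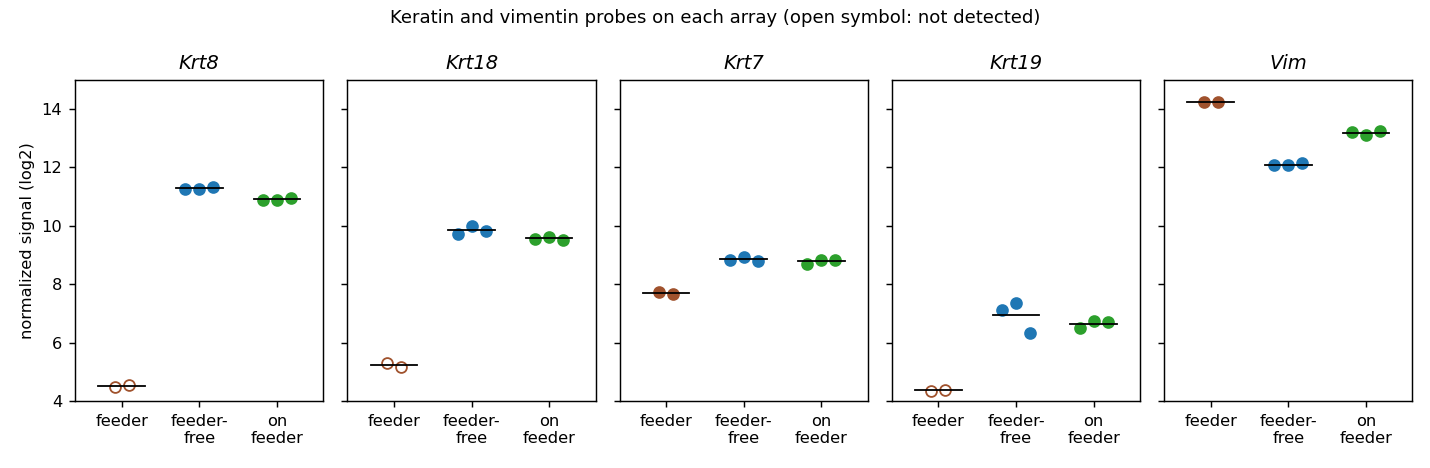
Normalized signal (log2, vertical axis) of the brightest kept probe of each tested member on each array of the feeder cells, the feeder-free iPSC and the iPSC on feeder. Points are single arrays, open where not detected, and bars are group means. The 3 keratins with open feeder symbols rise in both iPSC groups, and Vim falls from 14.24 in feeder cells to 12.10 in feeder-free iPSC, with iPSC on feeder between them at 13.18.

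Krt8 gave deposited signals of 64.0 and 69.0 on the feeder arrays, at the level of undetected probes. Its recovered signals were 3151.5, 2400.3 and 2265.6 on the feeder-free arrays. On the on-feeder arrays it gave 1965.7, 1474.3 and 2634.3. Feeder and iPSC arrays are therefore far apart for Krt8, while the unscaled signals of the iPSC groups overlap. After normalization the feeder-free arrays read 11.28, 11.27 and 11.34 and the on-feeder arrays 10.87, 10.88 and 10.97, so that scaling the arrays to each other separated the iPSC groups. In feeder-free iPSC Krt8 was at least 56.9-fold above feeder cells (adjusted p = 3.89e-13) and at least 43.5-fold higher in iPSC on feeder (adjusted p = 5.27e-13). These folds are lower bounds because Krt8 was not detected in feeder cells, and the reference is then the lowest detected level on each feeder array.

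Krt18, the partner of Krt8, gave 86.6 and 87.4 on the feeder arrays, with detection scores of 0.944 and 0.898 just under the 0.95 that counts as detected. On the feeder-free arrays it gave 1118.4, 1042.6 and 828.2, and on the on-feeder arrays 841.6, 663.2 and 1030.8. The feeder arrays lie apart from all 6 iPSC arrays, and the signals of the iPSC groups overlap before scaling. In feeder-free iPSC Krt18 was at least 20.8-fold above feeder cells (adjusted p = 4.27e-12) and at least 17.2-fold higher in iPSC on feeder (adjusted p = 1.04e-11).

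Krt8 and Krt18 are neighbours on mouse chromosome 15, with no coding gene between them in RefSeq (GRCm38.p6), although one is type II and the other type I. Krt8 lies on the minus strand and Krt18, at the higher coordinate, on the plus strand. Their starts thus face each other, and they are transcribed away from each other. Krt7 is on the same chromosome between Krt80 and Krt87, Krt19 is on chromosome 11 between Krt15 and Krt9, Epcam on chromosome 17 and Vim on chromosome 2. Promoters of the Krt8 and Krt18 pair are shown because their RNAs shared their pattern over the groups, and that of Vim because it ran the other way. The table of 300-base promoters (250 bases before to 50 after the annotated start, RefSeq GRCm38.p6) listed 5 of the 6 members and not Krt19. The windows are chr15:102004293-102004592 on the minus strand for Krt8, chr15:102027966-102028265 on the plus strand for Krt18 and chr2:13574061-13574360 on the plus strand for Vim. Capitals mark matches on either strand to the motifs searched, which were the GC box GGGCGG, the TATA box TATAAA, the AP-1 site TGANTCA and the E-box CAGGTG, a sequence that Snail and Zeb repressors are known to bind.
Krt8: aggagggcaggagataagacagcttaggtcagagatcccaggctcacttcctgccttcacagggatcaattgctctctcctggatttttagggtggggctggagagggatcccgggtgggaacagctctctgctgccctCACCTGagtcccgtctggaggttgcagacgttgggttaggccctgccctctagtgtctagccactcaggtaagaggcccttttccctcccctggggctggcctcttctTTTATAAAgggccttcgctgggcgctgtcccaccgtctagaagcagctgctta
Krt18: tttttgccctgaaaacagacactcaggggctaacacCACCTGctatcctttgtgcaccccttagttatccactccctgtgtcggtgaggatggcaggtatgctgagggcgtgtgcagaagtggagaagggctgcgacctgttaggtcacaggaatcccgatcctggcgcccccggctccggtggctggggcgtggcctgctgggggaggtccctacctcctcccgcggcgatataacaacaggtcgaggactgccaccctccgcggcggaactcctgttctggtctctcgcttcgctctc
Vim: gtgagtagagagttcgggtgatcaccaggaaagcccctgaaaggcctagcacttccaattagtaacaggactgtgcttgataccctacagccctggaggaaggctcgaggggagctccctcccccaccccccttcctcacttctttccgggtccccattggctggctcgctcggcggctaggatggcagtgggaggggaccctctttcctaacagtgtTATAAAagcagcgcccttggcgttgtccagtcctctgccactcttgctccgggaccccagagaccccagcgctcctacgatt
The Krt8 window holds an E-box 111 bases before the start and a run in which TATA box matches on both strands overlap, beginning 3 bases and 1 base before the start. The Krt18 window holds an E-box 214 bases before the start and no other match. The Vim window holds a TATA box 32 bases before the start and no E-box. Of the windows not printed, that of Krt7 holds 4 GC boxes and 1 E-box, 44 bases before the start, and that of Epcam holds 1 GC box and 2 E-boxes. The AP-1 letters are in none of the 5. Among 32851 promoters of the same length, 35.7% hold the GC box, 13.6% the TATA box, 7.81% the AP-1 site and 20.2% the E-box. A match is a description of the sequence, and binding was not measured.

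Krt7 was the only keratin of the set that was detected in the feeder cells, where it gave 215.6 and 216.0. It gave 651.5, 559.7 and 455.1 in feeder-free iPSC and 492.8, 411.9 and 677.2 on feeder. Both iPSC groups lie above the feeder arrays and overlap each other. The normalized level was 7.71 ± 0.07 (SD, n = 2) in feeder cells, 8.87 ± 0.07 (SD, n = 3) in feeder-free iPSC and 8.79 ± 0.08 (SD, n = 3) on feeder. The feeder-free level of Krt7 was thus 2.24-fold that of feeder cells (log2 1.16, SE 0.11, adjusted p = 4.75e-07) and 2.12-fold higher in iPSC on feeder (adjusted p = 1.03e-06).

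Krt19, a type I keratin without a tail domain, was the least even of the tested members within a group. Feeder signals were 52.8 and 57.8, and the feeder-free arrays gave 238.0, 236.0 and 128.5. The on-feeder arrays gave 154.0, 143.8 and 201.0. Feeder-free array 3 was lower than every other iPSC array, at a normalized level of 6.33 against 7.12 and 7.38 on the other feeder-free arrays. Feeder-free Krt19 was at least 2.79-fold above feeder cells (adjusted p = 4.27e-07) and at least 2.29-fold higher on feeder (adjusted p = 1.44e-06).

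Epcam could not be measured on these arrays. Its single probe gave signals of 61.3 to 75.7 over all 8 arrays, with detection scores of 0.273 to 0.827, and was detected on none. The normalized log2 signals spanned 4.50 to 4.71 and do not separate the groups. With no filter on dim probes, its log2 difference was 0.03 between feeder-free iPSC and feeder cells (adjusted p = 0.847) and 0.08 between the iPSC groups (adjusted p = 0.776). These values bound the signal of this probe and give no level for Epcam RNA. A further probe for Krt8 (highest score 0.876) and one for Vim (highest score 0.933) were likewise detected on no array, beside the bright probe of the same gene.

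Vimentin was highest in the feeder cells, where the keratins were lowest. Its bright probe gave 18736.7 and 19236.4 in feeder cells. Feeder-free iPSC gave 5376.4, 4196.5 and 3891.6, and iPSC on feeder gave 9642.6, 6905.6 and 11806.7. No array of a group overlaps another group's, and the on-feeder arrays lie between the others even before scaling. The normalized level was 14.24 ± 0.01 (SD, n = 2) in feeder cells, 12.10 ± 0.03 (SD, n = 3) in feeder-free iPSC and 13.18 ± 0.07 (SD, n = 3) on feeder. Vim in feeder-free iPSC was at 22.8% of the feeder level (log2 -2.14, SE 0.10, adjusted p = 9.37e-10), and in iPSC on feeder at 48.2% (log2 -1.05, adjusted p = 8.81e-07). Vimentin was thus well above background in the iPSC samples grown with no feeder cells. Of the 9 fibroblast markers with a probe, 4 (Thy1, Col1a1, Dcn and S100a4) were detected on every feeder-free array and 5 on none. Pdgfrb, detected on both feeder arrays, was among the 5. Which cells carried the vimentin was not tested. Whether the brightest signals, those of the feeder arrays, are linear in RNA amount was not tested.

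The comparison of iPSC on feeder with feeder-free iPSC asks what the feeder layer changes, and since the labels state added LIF for the feeder-free cells alone, feeder and medium cannot be told apart. Of the 5 tested members, Vim was higher on feeder, Krt8 was lower, and Krt7, Krt18 and Krt19 did not pass. That is 2 of 5 called, where 18.5% of all genes were called (10% higher and 8.46% lower), and 3 of 5 without overlap, where 35.8% of genes did not overlap. Vim rose 2.12-fold (95% confidence interval 1.85 to 2.43, log2 1.08, SE 0.09, adjusted p = 5.04e-06), and 1.49% of genes had a larger increase. The normalized Vim values were 12.08, 12.08 and 12.14 in feeder-free iPSC and 13.20, 13.11 and 13.24 on feeder. The rise was present under all 16 alternative settings, from 1.06 to 1.11.

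Krt8 on feeder was at 76.4% of its feeder-free level (log2 -0.39, SE 0.09, interval -0.59 to -0.19, adjusted p = 0.0114), and every on-feeder array was below every feeder-free array. Scaling the arrays by their medians gave nearly the same difference, -0.37, with an adjusted p of 0.479, and the call held in the other 15 alternatives, all of them quantile normalized. Under median scaling 399 genes were called in this comparison, 309 higher and 90 lower, against 1860 with 1009 higher and 851 lower. Krt18 differed by -0.28 (SE 0.10, interval -0.50 to -0.05, adjusted p = 0.0862). Its normalized values of 9.72, 9.996 and 9.83 feeder-free and 9.57, 9.63 and 9.52 on feeder do not overlap. With no background correction, or with an offset of 50, Krt18 passed (adjusted p = 0.0364 and 0.0420). Krt7 differed by -0.08, with an interval from -0.29 to 0.13. Krt19 differed by -0.29, with an interval from -0.74 to 0.17. Without feeder-free array 3, the array that was low for Krt19, this difference was -0.60 and passed (adjusted p = 0.0107). Within arrays, the log2 ratio of 2 keratin probes was compared between the iPSC groups for all 6 pairs, as a description with no test. The ratio of Krt7 to Krt8 was 0.31 higher on feeder and that of Krt7 to Krt18 was 0.20 higher, both without overlap. The other 4 pairs overlapped, with changes of 0.21 for Krt7 to Krt19, -0.11 for Krt8 to Krt18, -0.10 for Krt8 to Krt19 and 0.01 for Krt18 to Krt19.

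**Figure D2:**
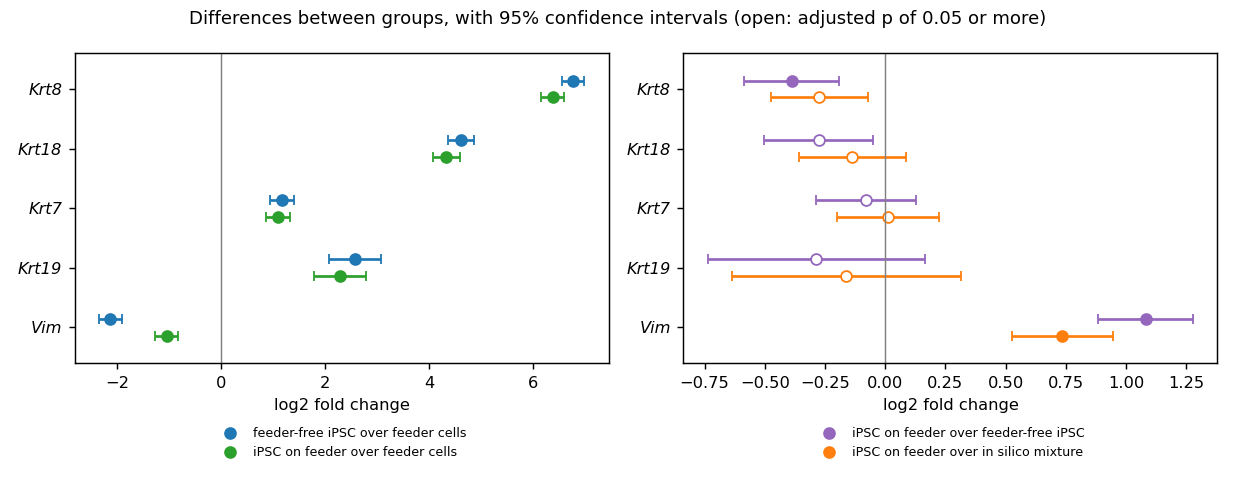
Log2 fold changes of the 5 tested members (horizontal axes) with 95% confidence intervals from the limma fits, for both iPSC groups over feeder cells (left) and for iPSC on feeder over feeder-free iPSC and over the in silico mixture (right). Filled points passed an adjusted p of 0.05. On the right, Vim lies at 1.08 and 0.74 and the 4 keratins lie at or below 0.01. The feeder values of Krt8, Krt18 and Krt19 on the left come from undetected probes, so those points are not bounds.

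The in silico mixture asks whether 8% of feeder signal in the iPSC preparation gives the values of iPSC on feeder. The mixtures share a feeder mean and are built from the feeder-free arrays, so they are not independent of the comparisons above. Vim reached 12.37, 12.44 and 12.50 in the rebuilt mixtures and 13.19, 13.10 and 13.23 in the on-feeder arrays normalized with them. It was 1.67-fold higher on feeder than in the mixture (interval 1.44 to 1.93, SE 0.09 on the log2 scale, adjusted p = 0.000952), with no overlap. Under median scaling the log2 difference was 0.75 and did not pass (adjusted p = 0.145). Of the 5 tested members 1, Vim, was called, where 11% of all genes were called (5.68% higher and 5.32% lower), and 2 of 5 did not overlap, where 33.8% of genes did not. Krt8 remained on the lower side at -0.27 (SE 0.09, adjusted p = 0.0804) with no overlap. It passed with no background correction (adjusted p = 0.0312), with an offset of 50 (adjusted p = 0.0373) and against the mixtures as deposited (adjusted p = 0.0312). Without background correction the rebuilt mixtures return the deposited ones, so the first and last of these settings are not separate evidence. The differences of Krt18, Krt7 and Krt19 were -0.14, 0.01 and -0.16, with adjusted p of 0.393, 0.947 and 0.652. The last 2 changed sign when single arrays were left out.

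The share of feeder signal in the on-feeder arrays was set beside Vim. It is the excess of on-feeder over feeder-free signal, as a percentage of the excess of feeder over feeder-free signal, and it takes the iPSC to keep their feeder-free level. Over 110 probes that were bright in feeder cells and undetected in feeder-free iPSC, the median share was 6.54% (quartiles 3.19% and 13.5%). Vim gave 34.3%, and 5 of the 110 probes gave more. On signals scaled between arrays, an alternative added after the data were seen, 178 probes gave a median of 4.70% and Vim gave 32.95%, with 33.8%, 29.8% and 35.2% on the single on-feeder arrays. Vim on feeder was therefore above the level that the typical feeder-specific probe would give on each array. The fibroblast marker sum moved with Vim, from 608.9 to 642.6 feeder-free to 2447 to 2518 on feeder, and its part in the Vim difference beyond the mixture was not tested.

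**Figure D3:**
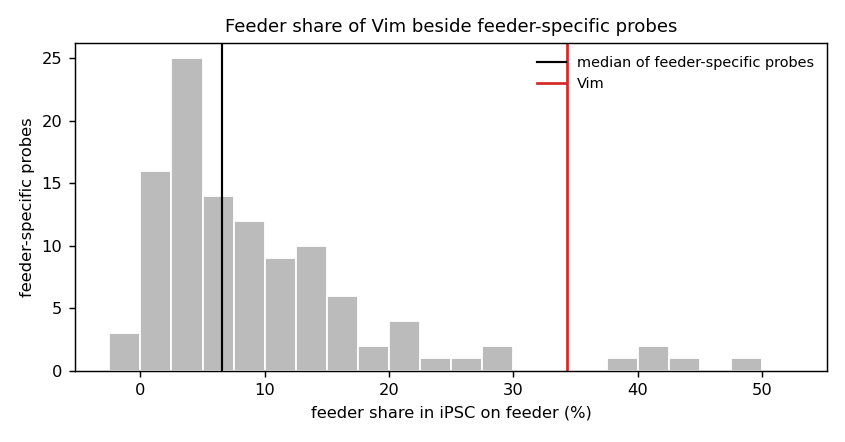
Distribution of the feeder share (percent, horizontal axis) in iPSC on feeder over 110 feeder-specific probes (vertical axis, number of probes), from background-corrected signals with no scaling between arrays. The black line is their median of 6.54% and the red line is Vim at 34.3%, to the right of all but 5 probes.

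Related gene lists, chosen by function with earlier results of these data known, were read from the same fit. Between feeder-free iPSC and feeder cells, 16 of 18 tested junction genes and partners of Epcam were higher and none lower, where 40.8% of all genes were higher and 41.1% lower. Their median log2 difference was 2.39, against -0.01 over all genes. Most of these genes were detected on no feeder array and were kept only through the iPSC arrays. They could hardly come out lower, so the count and the median do not test the list. Detected on both feeder arrays were only Spint1, at 3.75, and Cd9, at 0.20 (adjusted p = 0.0915, not called). Esrp1, a splicing regulator of epithelial cells, was at least 16.7-fold higher, and Cldn4, a tight junction claudin, had a log2 difference of 4.91. Of 18 tested mesenchymal partners of vimentin, 13 were lower and 3 higher against the same shares (median -2.06), led by the transcription factor Twist2 (-5.37) and the receptor kinase Axl (-5.22). With median scaling the median over all genes was 0.28 in place of -0.01, and this kept both list medians on their side, at 2.52 and -2.04.

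The other lists were divided in that comparison, where 40.8% of all genes were higher and 41.1% lower. Many of their higher genes, among them Krt42, Ina, Nefh, Dsg2 and Tfap2c, were detected on no feeder array and kept only through the iPSC arrays. Such genes could hardly come out lower, so the counts do not test these lists. Of 21 other keratins 9 were tested, with 5 higher and 2 lower. Among the higher were the type I keratins Krt42 (at least 8.36-fold) and Krt17 (log2 difference 2.10). Other intermediate filament proteins had 5 higher and 4 lower of 9, with internexin (Ina) at least 6.51-fold and the heavy neurofilament protein Nefh at least 4.64-fold higher. Desmosome and hemidesmosome genes had 9 higher and 6 lower of 15. Plakophilin Pkp2 had a log2 difference of 3.23. Desmoglein Dsg2 was at least 2.91-fold higher by its brightest probe, while a dimmer Dsg2 probe was lower. Epithelial transcription factors had 7 higher and 5 lower of 13, with Tfap2c at least 21.5-fold higher and its relative Tfap2a lower by a log2 difference of -4.18.

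Between the iPSC groups, 10 of 18 tested mesenchymal genes were higher on feeder, as Vim was, and 2 were lower, where 10% of all genes were higher and 8.46% lower. The list's median was 0.42, against -0.02 over all genes. S100a4, a calcium-binding protein that is also among the fibroblast markers, rose by 3.62 (adjusted p = 2.05e-08). The hyaluronan receptor Cd44 rose by 3.12 (adjusted p = 2.43e-09), Axl by 2.63 and Twist2 by 1.83. A dim Cd44 probe gave 0.13 and did not pass. Against the mixture, 6 of the 18 were higher and 1 lower, where 5.68% and 5.32% of all genes were, and S100a4 (2.15), Cd44 (1.75) and Axl (0.64) were among those higher, while Twist2 was at -0.13 (adjusted p = 0.422). Under median scaling 7 of the 18 were higher on feeder than in feeder-free iPSC and none lower, with a median of 0.46. Against the mixture, that scaling left 2 higher and none lower. The list's median against the mixture was 0.09 in the main fit and 0.12 under median scaling.

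Of 18 tested genes of epithelial junctions and Epcam partners, 7 were lower on feeder, none was higher and 11 were not called, where 8.46% of all genes were lower. The median of the list was -0.25. Ap1m2, the epithelial subunit of a clathrin adaptor, fell by 0.81 on the log2 scale (adjusted p = 0.000209) and did so with all 3 of its probes. Cldn4 (-0.59), the serine protease St14 (-0.59) and the protease Prss8 (-0.58) also passed, although 2 other St14 probes did not. None of the 18 passed under median scaling, where the median was -0.22, and 3 were lower against the mixture, where 5.32% of all genes were lower. Against the mixture, too, none passed under median scaling.

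Of 13 tested epithelial transcription factors, 3 were lower and 1 higher on feeder, beside 8.46% and 10% of all genes. Klf4, a factor of both pluripotent and epithelial cells, differed by -0.94, but 1 of its 3 probes gave 0.51 and did not pass. The grainyhead-like factors Grhl3 (-0.59) and Grhl2 (-0.50) were lower, and Tfap2a was higher (0.85). Against the mixture Tfap2a was at -0.18 (adjusted p = 0.354), while Klf4 and Grhl3 passed at -0.82 and -0.51. Under median scaling 1 of the 13 was higher and 1 lower on feeder than in feeder-free iPSC, and none passed against the mixture.

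Among 15 desmosome and hemidesmosome genes, plectin (Plec), which ties intermediate filaments to the cell cortex, rose by 1.003 (adjusted p = 6.56e-05) by its bright probe, and 3 dim ones did not pass. Plakoglobin (Jup), a plaque protein of desmosomes, fell by 0.84 on the log2 scale (adjusted p = 0.000716), and its dim second probe was at -0.16. The hemidesmosome integrin Itgb4 was at -0.43 (adjusted p = 0.0164). Of the 9 other intermediate filament proteins, lamin A/C (Lmna) rose by 0.63 with all 5 probes, Nefm rose by 0.44 and Nefh differed by -0.58. Nefm was detected on 1 of 3 feeder-free arrays. With the mixture as reference, Lmna was at 0.18 (adjusted p = 0.297), Nefh at -0.43 (adjusted p = 0.0741) and Itgb4 at -0.37 (adjusted p = 0.0551). Plec (0.68), Jup (-0.76) and Nefm (0.46) passed there. Of the 9 other keratins, Krt6b (-0.47) and Krt42 (-0.39) were lower and none was higher. Krt6b also passed against the mixture (-0.50), and Krt42 did not (-0.25, adjusted p = 0.130). Beside all 3 lists, 10% of all genes were higher and 8.46% lower. The medians of these 3 lists were -0.10, -0.13 and -0.06, against -0.02 over all genes. Under median scaling they were -0.05, -0.10 and -0.02, against 0.004, and no keratin or filament protein of these lists passed. In the desmosome list 1 gene was then higher and 1 lower. Against the mixture, no gene of these 3 lists passed under median scaling.

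**Figure D4:**
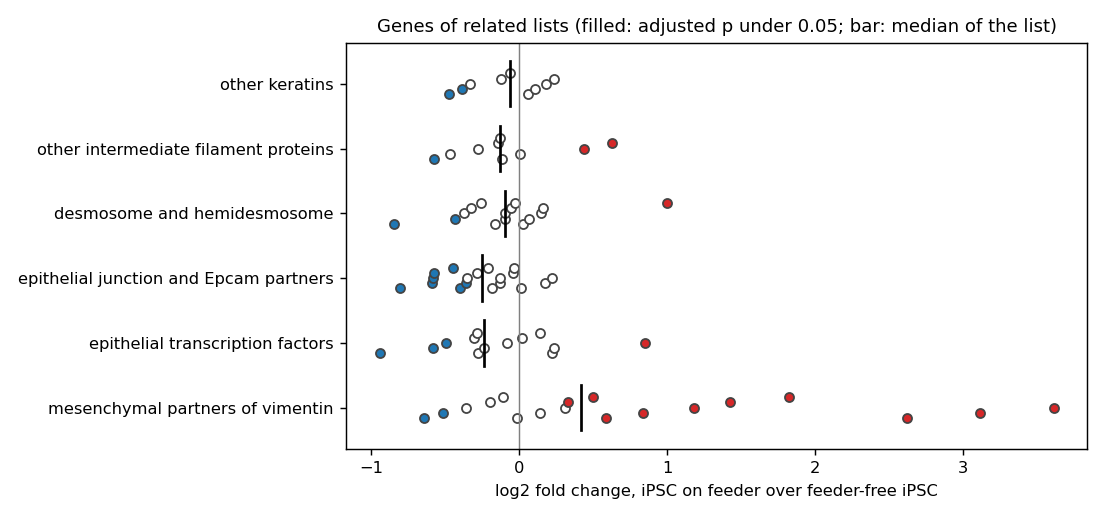
Log2 fold change of iPSC on feeder over feeder-free iPSC (horizontal axis) for each tested gene of 6 related lists (rows). Filled points passed an adjusted p of 0.05, red higher and blue lower, and vertical bars are list medians. The mesenchymal row reaches 3.62 with a median of 0.42, and the epithelial junction row has 7 filled points, all below 0.

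Genes most like each member were found by Pearson correlation of log2 levels across arrays, as a description over arrays that share groups and normalization. Over all 8 arrays, where the step from feeder cells to iPSC sets the pattern, Krt8 was closest to Apoc1 (r = 0.9999), Inpp5d and Slc7a7. Krt18 was closest to Oas1g (r = 0.9993), Apoc1 and As3mt, and its r with Krt8 was 0.9987. Vim was closest to Timp2 (r = 0.9993), Sox9 and Timp1. The nearest genes to Krt7 were Pfkp (r = 0.998), Mapk12 and Kank3, and to Krt19 they were Cox6b2 (r = 0.993), Kat8 and Rpl36.

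Over the 6 iPSC arrays alone the keratins no longer ran together as closely. The step between the iPSC groups enters each r here, so these values do not show that genes vary together within a group. Krt8 was nearest to Ap1m2 (r = 0.998), Sqle and Inava, with r = 0.790 to Krt18 and r = -0.966 to Vim. Krt18 was nearest to Dhx9 (r = 0.992), Tcf7l1 and Capzb. Krt7 was nearest to Vsir (r = 0.9901), Snrnp70 and Mtch2, and Krt19 to Rpl36 (r = 0.969), Kif17 and Creb1. Vim was nearest to Ankrd1 (r = 0.999), Timp2 and Vcam1, and Timp2 was thus among its 3 nearest genes on both sets of arrays.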

How the data were processed

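Biotinylated cRNA made from total RNA was hybridized to Illumina BeadChips, per the labels' protocols. The authors deposited 1 non-normalized bead intensity per probe and column, and a detection score beside each measured array, per the file headers. This deposited score is headed as a p-value but rose with the signal (Spearman correlations 0.9961 to 0.9987), so it was read as 1 minus p. Entries without a probe ID (5 of 46632, 0.471% to 0.569% of the signal) were left out. The submitters' processing notes name limma with no role. The table of values normalized by the authors was not used, because most of its columns did not follow these signals probe by probe.

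The deposited feeder-free intensity columns were pooled, with 91% or 92% of the feeder-free mean and 9% or 8% of the feeder mean, and columns 1 and 2 agreed exactly on 100% of probes. Each feeder-free array was therefore recovered from its mixture column, as mixture minus 8% of the feeder mean, divided by 92%. Pooling them again matched the pooled columns within 0.0471 signal units, and correlated with their own detection scores at 0.9965 to 0.9978 (pooled columns 0.9684 to 0.9714).

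Signals were background-corrected (limma 3.58.1 in R 4.3.3, normexp from detection scores, offset 16), log2 transformed and quantile normalized over the 8 arrays. A probe was kept where all arrays of some group detected it, at a score over 0.95, which left 18144 of 46627 probes and 10058 genes. Symbols came from the supplied probe table (29972 probes with 1 symbol, 10 with several, 16645 with none listed), and the brightest kept probe stood for a gene. A single lmFit and eBayes fit (5 residual degrees of freedom) gave two-sided tests. Mixtures were rebuilt from background-corrected signals and fitted with the on-feeder arrays alone (4 residual degrees of freedom). Feeder-specific probes had a score over 0.99 on both feeder arrays, were undetected on all feeder-free arrays and were at least 10 times brighter in feeder cells. Promoters were searched and figures drawn with Python 3.11.15, pandas 2.3.3, numpy 2.4.6 and matplotlib 3.10.9. The fit was tested on simulated data.

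The members and gene lists were chosen with earlier results of these data known. Named genes are all members and, per list, the 4 with the largest change past the threshold between iPSC groups and the 2 with the largest between feeder-free iPSC and feeder cells. For likeness, the 3 genes with the highest correlation to each member are named. Alternatives were median scaling, no background correction, an offset of 50, no filter, a score over 0.99, the mean of probes, the 2 groups alone, a replicate block, the deposited mixtures and leaving out each array. The number of arrays limits the precision.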

Additional observations from a re-analysis of the deposited data

How the results depend on the processing

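All 5 tested members stayed past the threshold against feeder cells in both iPSC groups under all 16 alternatives, and Vim did so between the iPSC groups. In every filtered setting, Krt8, Krt18 and Krt19 were kept only through the iPSC arrays and could hardly come out lower than in feeder cells. Krt8 on feeder against feeder-free iPSC passed in 15 of 16 (-0.42 to -0.36), all but median scaling. Median scaling called 399 genes in that comparison against 1860, with 1 member against 2, and 110 genes against the mixture (80 higher, 30 lower) against 1106, with 0 members against 1. Against the mixture, 2 members were called with no background correction, an offset of 50 or the deposited mixtures. The first and last of these settings use the same mixture signals. Leaving out single arrays gave 1156 to 2202 genes between the iPSC groups, lowest without feeder-free array 3 and also low without feeder-free array 2 (1172), on-feeder array 3 (1170) or on-feeder array 1 (1219). Against the mixture it gave 407 to 1544 genes, lowest without feeder-free array 2, with 465, 569 and 540 without feeder-free array 3, on-feeder array 1 and on-feeder array 3. The causes were not tested. Against the mixture, Krt7 ranged from -0.0221 to 0.0529 and Krt19 from -0.46 to 0.0448 over the alternatives, and both changed sign as single arrays were left out (Krt19 was highest without feeder-free array 2 and Krt7 lowest without feeder-free array 3). Neither passed in any. The median feeder share was 7.08% with probes at least 5 times brighter in feeder cells, 4.70% on scaled signals and 4.74% to 8.00% as arrays were left out (4.10% to 4.997% on scaled signals).

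Replicate numbers are shared between groups. Deviations of same-numbered feeder-free and on-feeder arrays correlated at 0.025, 0.164 and -0.198, and those of differently numbered arrays at -0.358 to 0.343. With so few arrays, these values cannot decide whether the numbers pair the samples. With the replicate number as a block, 1735 genes were called between the iPSC groups, 797 against the mixture, and 8053 and 7987 for feeder-free and on-feeder iPSC against feeder cells, with 2, 1, 5 and 5 members, which changed no member's call.

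Signal over background limits the dim probes. Nothing can be said of Epcam RNA, and folds of Krt8, Krt18 and Krt19 over feeder cells are lower bounds. With 2 or 3 arrays per group, a difference that misses the threshold does not show equal levels.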
